A study of Mus musculus with 8 samples.

Results

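The genes described here belong to 3 linked modules of neuronal migration: the doublecortin family (Dcx, Dclk1, Dclk2), the Lis1 module of dynein regulation (Pafah1b1, Nde1, Ndel1) and the kinase Cdk5 with its activators (Cdk5r1, Cdk5r2). Members were given by gene symbol, with earlier results of these arrays known, and every array probe paired with a member symbol was used. This gave 22 probes in 8 of the 9 genes, of 41174 gene probes on the array. No probe was paired with Cdk5r2, by symbol or older name, so this gene is not analysed here. Gene expression was measured in C57/BL6 mouse embryos whose cortex received an siRNA together with a GFP plasmid by in utero electroporation at E14.5, and whose cortical cells were dissociated and sorted at E16.5. The groups were 4 pools that received siFoxO6-2 and 4 pools that received siFoxO6-3, each siRNA directed against the transcription factor gene Foxo6. Every pool was hybridised on a two-colour array against the same pool of cells that had received a scrambled siRNA, and replicates 1 and 3 of each siRNA carried the siRNA pool in Cy3 while replicates 2 and 4 carried it in Cy5. All groups carried GFP and underwent the same surgery, cortices of several embryos were pooled, the labels do not give the sorting gate, and the target gene was reduced rather than deleted.

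Newborn cortical neurons move from the ventricular wall to the cortical plate by extending a leading process and pulling the nucleus after it. Doublecortin and its kinase relatives bind and stabilise microtubules in the leading process. Lis1, encoded by Pafah1b1, works with Nde1 and Ndel1 to regulate the motor dynein, which draws the nucleus towards the centrosome, and Cdk5, activated by p35 (Cdk5r1) or p39 (Cdk5r2), phosphorylates doublecortin and Ndel1 among other substrates. Loss of function of DCX or PAFAH1B1 in humans causes lissencephaly, a failure of neurons to reach their layers.

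The 2 siRNAs that define the groups are shown because each comparison with scrambled siRNA rests on them. Capitals mark the specified bases, and n marks an unspecified base at the 5′ end.
siFoxO6-2: nnACAUGCCAGUGACGACUAC
siFoxO6-3: nnCCAUCAGCCUUAUGACGCU
Each held 19 specified bases, of which 8 were the same at the same position, and the longest run they shared was 5 bases. They are different sequences against the same gene, so the values of a member are given for each siRNA as well as for both together.

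The targeted gene Foxo6 fell, with a log2 change of -1.30 for the siRNAs together (limma adjusted p = 0.00134), and was lower on each of the 8 arrays. With siFoxO6-2 the change was -0.95 (adjusted p = 0.00549) and with siFoxO6-3 -1.65 (adjusted p = 0.00954), and median centring gave -0.69 (adjusted p = 0.0706, not called). Between 72.9% and 87.2% of gene probes exceeded the empty control spots in the siRNA channel and between 54.3% and 85.9% in the scrambled channel. Across all gene probes, the median correlation of an array with the remaining ones was lowest in siFoxO6-3 replicate 4 (0.13), in siFoxO6-2 replicate 3 (0.27) and in siFoxO6-3 replicate 3 (0.28). The p-values cover the spread between pools, and they leave out the spread of the scrambled material, of which only 1 pool was hybridised. In sorted bulk cells, fewer cells of a type and less RNA per cell cannot be told apart.

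With both siRNAs together, Ndel1, Cdk5r1, Dclk1 and Dclk2 were lower than in the scrambled pool on their brightest probes, while the brightest probes of Dcx, Pafah1b1, Nde1 and Cdk5 did not pass the test. A probe was called when its limma p-value, adjusted by Benjamini-Hochberg over all gene probes, was under 0.05. Of the 22 member probes 8 were called, 6 lower and 2 higher, which is 36.4% of them where 11.8% of all gene probes were called (5.73% lower and 6.12% higher). Calls were more frequent among bright probes: 7 of the 13 member probes brighter than the median probe were called and 1 of the 9 dimmer ones, where 21.1% of all probes brighter than the median were called. In the brightest 10% of all gene probes 26.8% were called. Among the 8 brightest member probes, 1 per gene, 4 were called, against 15.2% of the brightest probes of all 18322 named genes. The median log2 change of these 8 probes was -0.22, against 0.0005 for the brightest probes of all named genes. All these directions are relative to a loess curve through the probes of each array. When each array was centred on its median instead, 0 of the 22 member probes were called (7 had an unadjusted p under 0.05), where 506 of all gene probes (1.23%) were called and 21931 had an unadjusted p under 0.05, and the lower values of the brightest Dclk1, Dclk2, Ndel1 and Cdk5r1 probes turned to higher ones. When the scrambled reference was assumed to vary as much as the siRNA pools do, 0 member probes and 0 of all gene probes were called by limma (2 and 908 at an unadjusted p under 0.05).

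**Figure D1:**
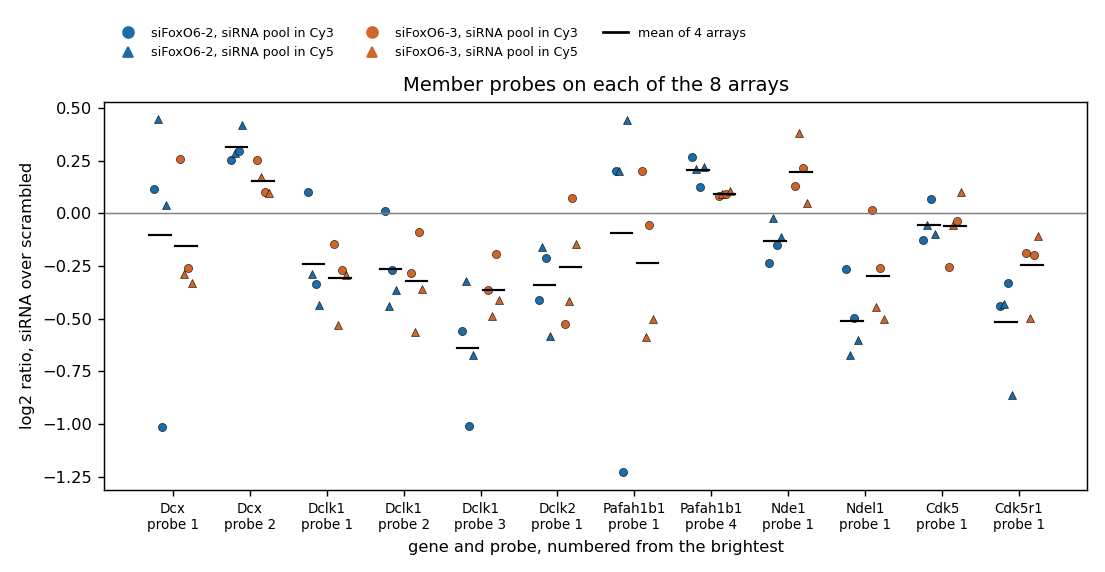
Log2 ratio of the siRNA pool over the scrambled pool on each of the 8 arrays for the 12 member probes given array by array, with circles for arrays that carried the siRNA pool in Cy3, triangles for Cy5, and bars for the mean of 4 arrays. Ndel1 probe 1 and Cdk5r1 probe 1 sit below 0 on 7 and 8 arrays under loess, Dcx probe 2 sits above 0 on 8, and Dcx probe 1 and Pafah1b1 probe 1 share a point below -1 in siFoxO6-2 replicate 3. Median centring turns the mean of Ndel1 probe 1 to 0.22 and that of Cdk5r1 probe 1 to 0.17.

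Dcx lies on chromosome X (143855842 to 143933396, GRCm38.p6) and encodes doublecortin, the microtubule-associated protein of migrating neurons. Its 3 probes did not move together. Dcx probe 1 (MMAB024853), which was brighter than 97.1% of gene probes, had log2 ratios of 0.12, 0.45, -1.02 and 0.04 with siFoxO6-2 replicates 1 to 4, and of 0.26, -0.29, -0.26 and -0.33 with siFoxO6-3 replicates 1 to 4. It was lower on 4 arrays and higher on 4, and the siRNA groups overlapped. Its change with both siRNAs together was -0.13 (SE 0.15, 95% interval -0.48 to 0.23, limma adjusted p = 0.671), and it ranged from -0.23 to 0.04 when arrays were left out in turn. Dcx probe 2 (MMAB008606), brighter than 61.7% of gene probes, had log2 ratios of 0.25, 0.29, 0.30 and 0.42 with siFoxO6-2 and of 0.25, 0.17, 0.10 and 0.10 with siFoxO6-3. It was above 0 on 8 of 8 arrays, and the 4 siFoxO6-2 values lay just above the 4 siFoxO6-3 values. It rose by 0.24 with both siRNAs together (SE 0.03, limma adjusted p = 0.00535), to 1.18 times the scrambled level, and it was called without each array in turn, while median centring gave 0.38 (adjusted p = 0.0607) and subtracted background 0.45 (adjusted p = 0.0209). Dcx probe 3 stood at -0.02 and exceeded the empty spots on only 2 of 8 scrambled channels. The mean of the 3 Dcx probes was 0.03 (adjusted p = 0.796), so that a change of Dcx as a gene rests on which probe is read.

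Dclk1 lies on chromosome 3 (55242303 to 55539068) and encodes doublecortin-like kinase 1, which joins a doublecortin domain to a kinase domain and is also made in shorter forms. Its 3 brightest probes fell and its 4 dimmer ones lay near 0. Dclk1 probe 1 (MMAB007765) had log2 ratios of 0.10, -0.29, -0.33 and -0.43 with siFoxO6-2 and of -0.14, -0.53, -0.27 and -0.29 with siFoxO6-3, which is below 0 on 7 of 8 arrays. It fell by 0.27 with both siRNAs together (SE 0.05, limma adjusted p = 0.0189), but was not called without siFoxO6-2 replicate 4, siFoxO6-3 replicate 1, siFoxO6-3 replicate 2 or siFoxO6-3 replicate 3 (adjusted p up to 0.0689), and median centring gave 0.18. Dclk1 probe 2 (MMAB034628) had log2 ratios of 0.01, -0.44, -0.27 and -0.36 with siFoxO6-2 and of -0.28, -0.56, -0.09 and -0.36 with siFoxO6-3. Only siFoxO6-2 replicate 1 was not below 0. The probe fell by 0.29 (SE 0.04, limma adjusted p = 0.00715) and was called without each array in turn, with a median-centred value of 0.08.

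Dclk1 probe 3 (MMAB025650) had the lowest mean change of the doublecortin family's probes. Its log2 ratios were -0.56, -0.32, -1.01 and -0.67 with siFoxO6-2 and -0.36, -0.49, -0.19 and -0.41 with siFoxO6-3. All 8 were below 0 and the siRNA groups overlapped. It fell by 0.50 (SE 0.07, limma adjusted p = 0.00723), to 0.706 of the scrambled level, and was called without each array in turn. Under median centring it stood at -0.11 with both siRNAs together (adjusted p = 0.578). It was then -0.24 with siFoxO6-2 and 0.02 with siFoxO6-3, neither of them called. Dclk1 probes 4 to 7 had changes of 0.01, -0.04, -0.06 and -0.02 and were above the empty spots on 1 to 6 of the 8 scrambled channels. The mean of all 7 Dclk1 probes was -0.17 (adjusted p = 0.0137). The probes may read different transcripts of the gene, and where they lie within it was not used here.

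Dclk2 lies on the same chromosome (86786150 to 86920952) and encodes a second doublecortin-like kinase. Dclk2 probe 1 (MMAB002976), the brightest of all member probes, had log2 ratios of -0.41, -0.16, -0.21 and -0.58 with siFoxO6-2 and of -0.52, -0.41, 0.07 and -0.15 with siFoxO6-3. Only siFoxO6-3 replicate 3 was above 0, and the groups overlapped. The probe fell by 0.30 (SE 0.08, limma adjusted p = 0.047), a call that was kept without siFoxO6-2 replicate 3 or siFoxO6-3 replicate 3 and lost without each of the other 6 arrays (adjusted p up to 0.141). Median centring gave 0.39. Dclk2 probe 2 (-0.01) was above the empty spots on 0 siRNA channels and 1 scrambled channel, so only a single probe reports on this gene.

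**Figure D2:**
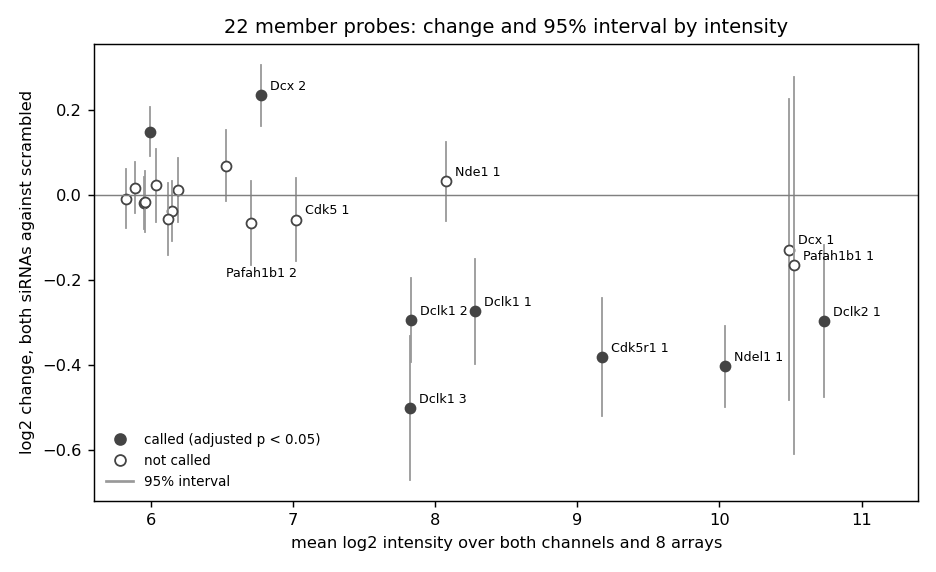
Log2 change with both siRNAs together against mean log2 intensity for all 22 member probes, with 95% intervals and filled points for called probes. The 13 probes in the brighter part of the range hold 7 of the 8 calls, and the intervals of Dcx probe 1 and Pafah1b1 probe 1 are the widest.

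Pafah1b1 lies on chromosome 11 (74673949 to 74724384) and encodes Lis1, the dynein regulator. Pafah1b1 probe 1 (MMAB008711), brighter than 97.2% of gene probes, had log2 ratios of 0.20, 0.20, -1.23 and 0.44 with siFoxO6-2 and of 0.20, -0.58, -0.06 and -0.50 with siFoxO6-3. It was higher on 4 arrays and lower on 4, with the lowest value in siFoxO6-2 replicate 3. The change was -0.16 with both siRNAs together (SE 0.19, limma adjusted p = 0.661), it ranged from -0.26 to 0.05 when arrays were left out in turn, and its 95% interval ran from -0.61 to 0.28. Pafah1b1 probe 4 (MMAB038628) was called (adjusted p = 0.0111), with log2 ratios of 0.27, 0.21, 0.13 and 0.22 with siFoxO6-2 and of 0.08, 0.09, 0.09 and 0.11 with siFoxO6-3. It was not well above background on any of the 8 scrambled channels, nor on 3 of the 8 siRNA channels, so no fold is given, and its fitted value of 0.15 turned to -0.05 under median centring and was 0.97, still called, with subtracted background. The other 3 Pafah1b1 probes stood at -0.07, 0.07 and 0.02 and were not called, and the mean of the 5 probes was 0.001 (adjusted p = 0.989).

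Ndel1 lies on the same chromosome (68821434 to 68853146) and encodes the Lis1 partner that is a substrate of Cdk5. Ndel1 probe 1 (MMAB011370) had log2 ratios of -0.26, -0.67, -0.50 and -0.60 with siFoxO6-2 and of 0.02, -0.44, -0.26 and -0.50 with siFoxO6-3. It was below 0 on 7 of 8 arrays and close to 0 in siFoxO6-3 replicate 1. The probe fell by 0.40 with both siRNAs together (SE 0.04, limma adjusted p = 0.00272), to 0.756 of the scrambled level, which was the smallest adjusted p among the member probes. Without each array in turn it stayed called, between -0.44 and -0.37, and median centring gave 0.22 (adjusted p = 0.376). A second, dim probe stood at 0.02 and the mean of both probes at -0.19 (adjusted p = 0.00705).

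Nde1, on chromosome 16 (14163275 to 14192928), encodes the close relative of Ndel1 that is known for its role in dividing progenitors. Its only probe (MMAB015440) had log2 ratios of -0.23, -0.02, -0.15 and -0.11 with siFoxO6-2 and of 0.13, 0.38, 0.21 and 0.05 with siFoxO6-3. Under loess the 4 siFoxO6-2 values were all below 0 and the 4 siFoxO6-3 values all above, without overlap. Median centring put the change above 0 with each siRNA, at 0.30 with siFoxO6-2 (limma adjusted p = 0.362) and 0.62 with siFoxO6-3 (adjusted p = 0.269). The opposite signs thus depended on the scaling. The change with both together was 0.03 (SE 0.04, limma adjusted p = 0.681). The difference of siFoxO6-3 minus siFoxO6-2 was 0.32 (95% interval 0.14 to 0.51, unadjusted p = 0.0041, limma adjusted p = 0.431). Under median centring it was 0.33 with an SE of 0.34, and was not called. The scrambled pool cancels in that difference, but after adjustment over all gene probes it did not pass the test.

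Cdk5 lies on chromosome 5 (24407597 to 24423587) and encodes the cyclin-dependent kinase of postmitotic neurons. Its only probe (MMAB002613) had log2 ratios of -0.13, -0.06, 0.07 and -0.10 with siFoxO6-2 and of -0.26, -0.05, -0.03 and 0.10 with siFoxO6-3. They lay on both sides of 0 in each group and overlapped. The change was -0.06 (95% interval -0.16 to 0.04, limma adjusted p = 0.46), and median centring gave 0.15 (adjusted p = 0.115).

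Cdk5r1, on chromosome 11 (80477023 to 80481184), encodes p35, an activator of Cdk5. Its only probe (MMAB028745) had log2 ratios of -0.44, -0.43, -0.33 and -0.86 with siFoxO6-2 and of -0.19, -0.50, -0.20 and -0.11 with siFoxO6-3. All 8 were below 0, the lowest was siFoxO6-2 replicate 4, and the groups overlapped. Cdk5r1 fell by 0.38 with both siRNAs together (SE 0.06, limma adjusted p = 0.00957), to 0.768 of the scrambled level. It was called without each array in turn (-0.43 to -0.33), and median centring gave 0.17 (adjusted p = 0.314). Within the module the activator was thus called and the kinase was not, and the difference between the genes was not tested.

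The 10 member probes not given array by array lay between the percentiles 2.57 and 59.7 of mean intensity. Their log2 ratios lay between -0.21 and 0.20 on every array, and their changes with both siRNAs together between -0.07 and 0.07.

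For each siRNA on its own, 6 member probes (27.3%) were called with siFoxO6-2, where 7.86% of all gene probes were (3.78% lower and 4.08% higher), and 0 with siFoxO6-3, where 0.658% were. Both comparisons use the same scrambled pool. With siFoxO6-2, Ndel1 probe 1 fell by 0.51 (SE 0.06, limma adjusted p = 0.00609), Cdk5r1 by 0.52 (adjusted p = 0.0158), Dclk1 probe 3 by 0.64 (adjusted p = 0.0145) and Dclk1 probe 2 by 0.27 (adjusted p = 0.04). Dcx probe 2 rose by 0.31 (adjusted p = 0.00988), and the dim Pafah1b1 probe 4 was the sixth. Of these 6 calls, that of Ndel1 probe 1 was kept without each array in turn, and each of the others was lost without at least 1 array. The count was 2 without siFoxO6-2 replicate 1 and 1 without siFoxO6-2 replicate 4. Calls among all gene probes fell as well, from 3236 with every array to 514 and 456 in these fits. The lower member counts are therefore not particular to the member genes.

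With siFoxO6-3 the same probes stood at -0.30 for Ndel1 probe 1 (limma adjusted p = 0.0721), -0.25 for Cdk5r1 (adjusted p = 0.251), -0.36 for Dclk1 probe 3 (adjusted p = 0.173), -0.32 for Dclk1 probe 2 (adjusted p = 0.0649) and 0.16 for Dcx probe 2 (adjusted p = 0.171). None passed the test by limma, although 10 member probes and 5790 of all probes had an unadjusted p under 0.05, and 4 member probes were called without siFoxO6-2 replicate 3 (Dclk1 probes 1, 2 and 3 and Ndel1 probe 1, all lower), where 3.73% of all gene probes were. Median centring turned the siFoxO6-3 values to 0.31 (Ndel1 probe 1), 0.27 (Cdk5r1), 0.02 (Dclk1 probe 3) and 0.04 (Dclk1 probe 2). Dcx probe 2 then stood at 0.26, and none of these was called. The lower direction with siFoxO6-3 thus depended on the scaling. A call with one siRNA and not the other does not show that the siRNAs differ. The test of that difference called 0 of 22 member probes and 0 of all gene probes (3 and 2789 at an unadjusted p under 0.05). The 95% interval of siFoxO6-3 minus siFoxO6-2 was 0.02 to 0.40 for Ndel1 probe 1, -0.01 to 0.55 for Cdk5r1, -0.06 to 0.62 for Dclk1 probe 3 and -0.20 to 0.19 for Cdk5, and it was -0.76 to 0.66 for Dcx probe 1.

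**Figure D3:**
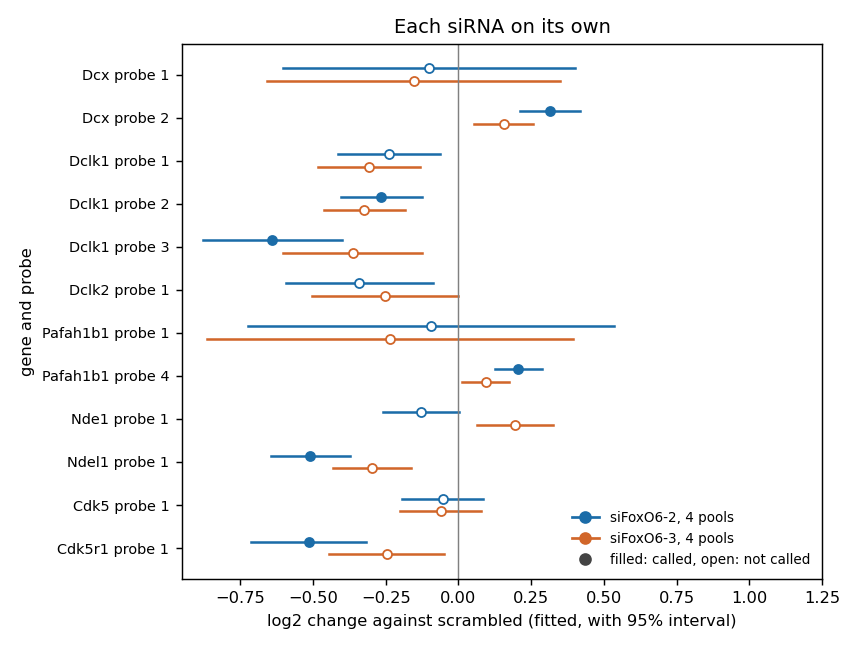
Fitted log2 change against the scrambled pool with its 95% interval for siFoxO6-2 and siFoxO6-3 (4 pools each) at the 12 member probes given array by array, with filled points for called probes. The 6 filled points all belong to siFoxO6-2, and the intervals of Nde1 lie on opposite sides of 0 or touch it. The fitted values of Dclk1, Dclk2, Ndel1 and Cdk5r1 lie below 0 with each siRNA under loess. Median centring turns the called siFoxO6-2 values of Dclk1 probe 2, Ndel1 and Cdk5r1 to 0.13, 0.14 and 0.07. With siFoxO6-3 it turns Dclk1 probes 1 to 3 to 0.14, 0.04 and 0.02, Dclk2 to 0.40, Ndel1 to 0.31 and Cdk5r1 to 0.27. It puts Nde1 at 0.30 with siFoxO6-2 and 0.62 with siFoxO6-3.

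The brightest probes of Dcx and Pafah1b1 were low and high on much the same arrays. Pearson's r over the 8 arrays was 0.90 (exact permutation p = 0.0034, two-sided) and Spearman's rho 0.74 (exact permutation p = 0.0458), the highest r among the 28 pairs of brightest member probes. The ratios were not adjusted for dye here. The permutation treated all 8 arrays as interchangeable although they differ in siRNA and dye, so its p-values are descriptive. After Benjamini-Hochberg adjustment over the 28 pairs the permutation p was 0.0958 for r and 0.428 for rho, which did not pass the threshold. Without siFoxO6-2 replicates 2 and 3, the arrays farthest from the median of Dcx, r was 0.82. Within the siFoxO6-2 and siFoxO6-3 arrays it was 0.92 and 0.83 over 4 arrays each. The 0.92 leans on siFoxO6-2 replicate 3 (-1.02 and -1.23). On siFoxO6-2 replicates 1, 2 and 4 Dcx stood at 0.12, 0.45 and 0.04 and Pafah1b1 at 0.20, 0.20 and 0.44. These values did not rise together. All 8 points share the scrambled pool. The mean log2 ratio of the 9 measured cortical neuron markers also had its lowest siFoxO6-2 value in replicate 3 (-0.17, against 0.12, 0.19 and 0.11 in replicates 1, 2 and 4). With siFoxO6-3 this mean was -0.04, -0.22, -0.14 and -0.15 in replicates 1 to 4, so the lowest array was siFoxO6-3 replicate 2. The part of the marker mean in the Dcx and Pafah1b1 values was not tested. Cdk5 ran the other way, with r = -0.70 to Pafah1b1 and -0.70 to Dcx (exact permutation p = 0.0563 and 0.0573, adjusted 0.535 for each).

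**Figure D4:**
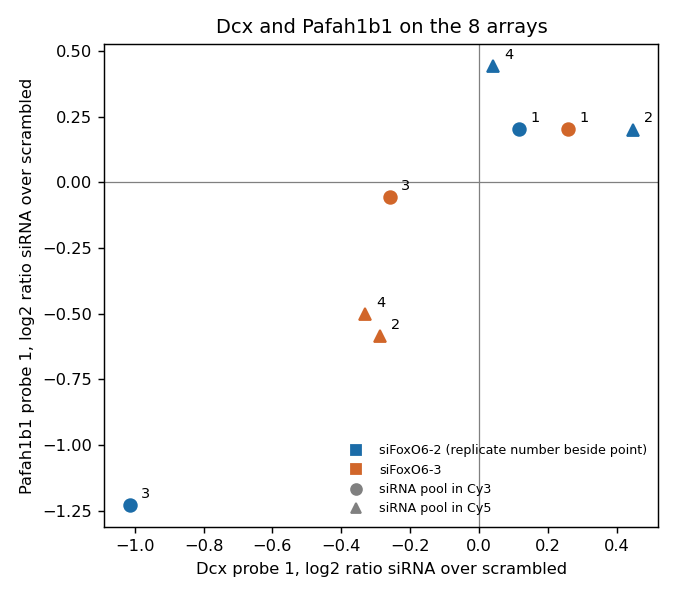
Log2 ratio of Pafah1b1 probe 1 (vertical) against Dcx probe 1 (horizontal) on the 8 arrays, coloured by siRNA, with replicate numbers. The arrays run from siFoxO6-2 replicate 3 (-1.02 and -1.23) to 4 arrays with values above 0 for each gene, and r was 0.90.

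The genes whose dye-adjusted log2 ratios followed these members most closely over the 8 arrays were named as a description, out of 17801 to 17803 candidate probes brighter than the median. For Dcx probe 1 they were Scai (r = 0.99), Msh6 (0.98) and Gcc2 (0.98). For Pafah1b1 probe 1 they were Ulk2 (1.00), Nupl1 (0.99) and Scyl2 (0.99). All 6 had their lowest value in siFoxO6-2 replicate 3, as Dcx and Pafah1b1 did, so each r leans on that array. For Cdk5 they were Mobkl2a (0.99), Plbd2 (0.98) and the neuronal tubulin Tubb3 (0.98), which had their lowest value in siFoxO6-3 replicate 1.

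The motor complex that Lis1 regulates was measured through 25 of 28 listed dynein, dynactin and Lis1 partner genes, each by its brightest probe. Of these 3 rose and 4 fell with both siRNAs together (28% called, median log2 change -0.04). Dync1h1, the dynein heavy chain, fell by 0.98 (SE 0.04, limma adjusted p = 0.000453), and with siFoxO6-2 and siFoxO6-3 it stood at -1.06 (adjusted p = 0.00143) and -0.91 (adjusted p = 0.00954). The mean of its 4 probes was -0.24 (adjusted p = 0.00214), and median centring gave -0.37 (adjusted p = 0.117). Nudc, a dynein and Lis1 cofactor, fell by 0.49 (adjusted p = 0.00448, 0.14 under median centring), and the intermediate chain Dync1i2 fell by 0.47 (adjusted p = 0.0104, 0.35 under median centring; mean of its 2 probes -0.15, not called). The neuronal intermediate chain Dync1i1 rose by 0.43 (adjusted p = 0.0153; 0.85 and not called under median centring; 0.22 as the mean of its 2 probes, adjusted p = 0.0179), a call lost without siFoxO6-2 replicate 4 or siFoxO6-3 replicate 2. Calls in this list thus went in both directions.

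Among the Cdk5 regulators, Cdk5 substrates and doublecortin partners, 29 of 30 genes were measured, and 2 rose and 6 fell with both siRNAs together (27.6% called, median -0.04). Ppp1r9a, which encodes the spine protein neurabin, fell by 0.86 (SE 0.10, limma adjusted p = 0.00434), but the mean of its 6 probes was -0.16 (adjusted p = 0.0169) and median centring gave -0.39 (adjusted p = 0.158). The collapsin response mediators Crmp1 and Dpysl3, which act in semaphorin signalling, each fell by 0.61 (adjusted p = 0.0051 and 0.00272). Both were called with each siRNA alone (Crmp1 -0.49 and -0.72, Dpysl3 -0.51 and -0.71), while median centring gave 0.24 and -0.07. Dpysl2, a mediator of the same family in this list, did not fall (0.26, adjusted p = 0.147, not called). Cttnbp2, a cortactin-binding protein, rose by 0.64 (adjusted p = 0.0253; 1.32 and not called under median centring; 0.39, called, as the mean of its 5 probes), a call that was kept in 3 of the 8 fits that leave out an array and lost without siFoxO6-2 replicate 1 or 4 or siFoxO6-3 replicate 1, 2 or 3. These lists were chosen with earlier results of the same arrays known, and the shares called stand beside 15.2% of the brightest probes of all named genes.

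The labelled tissue was checked through marker lists. With both siRNAs together, 15.2% of the brightest probes of all named genes were called, which stands beside each marker count for both siRNAs. Of 10 cortical neuron markers 9 were measured and 8 exceeded the empty spots on all arrays, Slc17a7 being the exception; 1 rose and 2 fell with both siRNAs together. Summed probe intensities of these markers ran from 8801 to 40323 with siFoxO6-2, from 4887 to 30060 with siFoxO6-3 and from 6370 to 13874 in the scrambled channel. Of 11 microglial markers 5 rose and 0 fell with both siRNAs together under loess (45.5% called). With siFoxO6-2 the counts were also 5 and 0, where 7.86% of all gene probes were called. With siFoxO6-3 they were 0 and 0, where 0.658% were. The list mean per array was 0.25 to 0.44 with siFoxO6-2 and 0.11 to 0.13 with siFoxO6-3. Summed intensities of the microglial markers ran from 1726 to 3936 with siFoxO6-2, from 916 to 2625 with siFoxO6-3 and from 961 to 1184 in the scrambled channel. P2ry12, which was among the 5, was not well above background. The median intensity of all gene probes ran from 58 to 123 in the siRNA channel and from 66 to 84 in the scrambled channel. A higher sum is therefore not by itself a rise of these markers. With both siRNAs together, apical progenitor markers had 1 gene higher and 2 lower of 10. Intermediate progenitor markers had 0 and 1 of 8, and interneuron markers 0 and 1 of 8. Endothelial markers had 1 higher and 0 lower of 8, and markers of pancreatic acinar tissue, which cortex should lack, had 0 higher and 2 lower of 8 (Amy1 at -2.29 and Pnlip at -2.04, or -0.93 and -0.95 as the mean of 2 probes each), with list means per array of -0.71 to -0.22 with siFoxO6-2 and -1.42 to -0.43 with siFoxO6-3. Both calls were lost without siFoxO6-2 replicate 2 or 4, that of Pnlip also without siFoxO6-3 replicate 2, and median centring gave -1.71 (adjusted p = 0.0716) and -1.93 (adjusted p = 0.0589). With both siRNAs under median centring, Ctss was the only microglial marker called (1.55, adjusted p = 0.0399). The part of these shifts in the changes of the migration genes was not tested.

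Promoter sequence was looked at because Foxo6 encodes a FoxO factor, a family known to bind GTAAACA and ATAAACA. RefSeq windows of 250 bases before to 50 after a gene start (GRCm38.p6) were matched for 7 of the 9 members, 9 windows in all. Cdk5 and Cdk5r1 had no window. Neither motif was found in any of the 9 windows on either strand. Of all 32851 windows 3.65% held GTAAACA, 4.6% held ATAAACA and 7.97% held either. At such shares 9 windows are too few to tell the members from other genes. The shorter core AAACA, which both motifs contain, was found in 2 of the 9 windows, those of Dclk2 and of the inner start of Dclk1, and in 50.5% of all windows. Dclk2, whose brightest probe also fell under loess and whose window held the core, is not shown. The sequences of Ndel1 and Dclk1, whose brightest probes fell under loess, are shown on the gene strand, 5′ to 3′, with capitals for the core.
Ndel1, chr11:68853147-68853385, minus strand: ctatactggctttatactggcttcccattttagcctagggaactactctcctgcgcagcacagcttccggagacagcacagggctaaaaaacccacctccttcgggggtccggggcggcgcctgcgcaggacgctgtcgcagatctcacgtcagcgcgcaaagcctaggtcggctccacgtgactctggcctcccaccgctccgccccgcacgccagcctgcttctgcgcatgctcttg
Dclk1 outer start, chr3:55242114-55242302, plus strand: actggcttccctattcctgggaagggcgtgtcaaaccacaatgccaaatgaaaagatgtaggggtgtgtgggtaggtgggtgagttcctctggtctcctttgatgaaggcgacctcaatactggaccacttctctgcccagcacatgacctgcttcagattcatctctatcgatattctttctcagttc
Dclk1 inner start, chr3:55461478-55461727, plus strand: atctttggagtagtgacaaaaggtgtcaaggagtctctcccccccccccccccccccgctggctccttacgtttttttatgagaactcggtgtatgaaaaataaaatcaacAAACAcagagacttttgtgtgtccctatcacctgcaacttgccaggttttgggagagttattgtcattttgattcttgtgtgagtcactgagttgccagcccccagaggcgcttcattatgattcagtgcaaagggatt
The inner Dclk1 window lies inside the annotated gene and holds AAACA 139 bases before that start. A match is a run of letters and not a measured site, and binding was not measured on these arrays.

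The scaling of the arrays bears on every direction given for bright members. After median centring the log2 change rose with intensity across all probes, from a median of -0.32 in the dimmest 10% of probes to 0.62 in the brightest 10%, while loess held it between -0.02 and 0.02. Ndel1 at 0.22 and Cdk5r1 at 0.17 then lay below the median of the brightest 10% of probes. Dclk1 probe 1 at 0.18 lay below the 0.45 of the next 10%. The brightest probes of Dcx (0.55) and Pafah1b1 (0.51), which were not called, also lay below the 0.62. Setting a value against probes of like brightness removes the trend that loess removes, so this comparison is not independent of the loess result. The sign of Ndel1, Cdk5r1 and Dclk1 probe 1 was not the same under loess and median centring. Dcx probe 2 was above 0 under both.

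**Figure D5:**
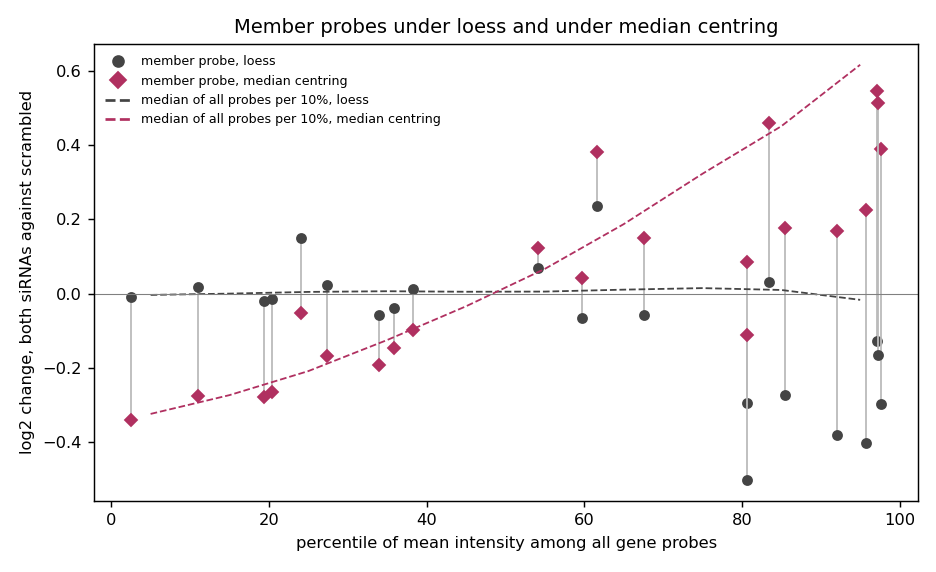
Log2 change with both siRNAs together for the 22 member probes under loess (circles) and median centring (diamonds), against the percentile of mean intensity, with dashed lines for the median of all gene probes in each 10% of the intensity range. The diamonds rise with the dashed line from -0.32 to 0.62. Those of Ndel1 probe 1, Cdk5r1 probe 1, Dclk1 probes 1 and 2 and Dclk2 probe 1 sit above 0 but below the line, with Dclk1 probe 3 at -0.11. Those of Dcx probe 1 (0.55) and Pafah1b1 probe 1 (0.51), not called, also sit below 0.62.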

How the data were processed

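Two-colour arrays of 8 siRNA pools were analysed, each against 1 scrambled reference pool. Per the file headers, the deposited scanner tables hold uncorrected intensity of each spot in Cy5 and Cy3, with that of its local background. A deposited value table holds log2 ratios of siRNA over scrambled, whose making is not given in the sources used here. It correlated with the scanner ratios at 0.85 to 0.97 and served as an alternative. Mean intensities were background-corrected with normexp (offset 50) and a loess curve was removed from every array, with the 4046 control spots at weight 0. This assumes that at each intensity most genes do not change.

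Each of 41174 gene probes was fitted by itself in limma 3.58.1 (R 4.3.3) with 1 coefficient per siRNA and a dye term (5 residual degrees of freedom). The 4 comparisons were both siRNAs, each siRNA, and their difference, two-sided, called at an adjusted p (Benjamini-Hochberg over all probes) under 0.05. The fit was tested on simulated data. A probe was above background when it exceeded the 97.5th percentile of 959 empty spots. Probe symbols came from the platform annotation (34186 probes with 1 symbol, 6988 with none, 0 with several).

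Array-by-array values are given for the brightest probe of each member and each further member probe called in any comparison. Up to 4 called genes per pathway list, by size of change, and the 3 genes most like Dcx, Pafah1b1 and Cdk5 are named. The brightest probe stands for a gene outside the members. Members, lists and rules were chosen with earlier results of these data known. The number of arrays limits the precision. Alternatives covered background, scaling, dye, replicate block, probe rule, variance model, array weights, reference spread and single arrays left out. Same-numbered pools of the siRNAs had dye-adjusted correlations of 0.36, -0.18, -0.29 and -0.53, so the numbers were not taken to pair pools.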

Additional observations from a re-analysis of the deposited data

Results flagged for a closer look

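In siFoxO6-3, replicate 1 stood apart from the other 3 pools for Dcx probe 1, with a log2 ratio of 0.26 against the next value of -0.26. In siFoxO6-2, replicate 3 stood apart for Pafah1b1 probe 1, with -1.23 against the next value of 0.20. Dcx probe 1 was also lowest on that array, and neither probe was called by limma with or without that array. These were 2 of 24 groups examined (12 probes, 2 siRNAs), and chance flags about 1 in 20. For Nde1 probe 1 under loess, each siFoxO6-2 pool was below 0 and each siFoxO6-3 pool above. The difference of 0.32 (limma adjusted p = 0.431) did not pass the test. Median centring put the change at 0.30 with siFoxO6-2 and 0.62 with siFoxO6-3.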

How the results depend on the processing

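With median centring, 0 member probes were called with both siRNAs and 0 with siFoxO6-2, where 1.23% and 0% of all gene probes were. The values with both siRNAs turned to 0.18 (Dclk1 probe 1), 0.084 (Dclk1 probe 2), 0.39 (Dclk2 probe 1), -0.053 (Pafah1b1 probe 4), 0.22 (Ndel1 probe 1) and 0.17 (Cdk5r1 probe 1), and with siFoxO6-2 to 0.13 (Dclk1 probe 2), 0.14 (Ndel1 probe 1) and 0.066 (Cdk5r1 probe 1). With the reference pool given the spread of an siRNA pool, 0 member probes were called with both siRNAs and 0 with siFoxO6-2. The share of all gene probes called was 0% in each. Reading 1 probe per gene left 4 of 8 genes called with both siRNAs and 2 with siFoxO6-2, where 13.3% and 8.79% of all genes were. The mean of all probes of a gene gave 4 and 2, where 12.6% and 8.19% were. All genes here include probes without a symbol, each read singly. With siFoxO6-2, 2 probes were called under a trended robust variance and 1 when its 4 arrays were fitted alone. In each of these fits 1.21% of all gene probes were called. With siFoxO6-3, 1 probe was called from the deposited table, 2 with array weights and 3 without siFoxO6-2 replicate 3 and siFoxO6-3 replicate 4 together, where 0.741%, 1.72% and 5.45% of all gene probes were called. When arrays were left out in turn, the counts ran from 6 to 8 with both siRNAs, from 1 to 6 with siFoxO6-2 and from 0 to 4 with siFoxO6-3. The shares of all gene probes ran from 5.11% to 19.7%, from 1.11% to 15.5% and from 0% to 3.73%. The replicate block gave 7 called probes with both siRNAs, 5 with siFoxO6-2, 0 with siFoxO6-3 and 0 for the difference. The shares of all gene probes were 9.72%, 6.01%, 0.0267% and 0%. The replicate numbers did not pair the pools (same-numbered r of 0.36, -0.18, -0.29 and -0.53). No background correction, subtracted background, the median over pixels, no dye term and the removal of dim probes left each count within 1.5 times, although subtracted background moved Dcx probe 2 to 0.45 and Pafah1b1 probe 4 to 0.97. Loess by print-tip group was not run because the files hold a single block. The cause of these changes was not tested. Signal over background limits the 4 dim Dclk1 probes and the dim probes of Dclk2, Pafah1b1, Ndel1 and Dcx.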
